A study of Homo sapiens with 4 samples.

Results

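NF-kappaB is a family of dimeric transcription factors built from Rel-homology subunits, and its activity is held back by IkB proteins that keep the dimers in the cytoplasm. The present account covers 10 genes of this system on 4 Affymetrix expression arrays: the subunits RELA, RELB, REL, NFKB1 and NFKB2, the inhibitors NFKBIA, NFKBIB, NFKBIE and NFKBIZ, and TNFAIP3. They were chosen by name, and every probe set to which the platform annotation gives exactly 1 of these symbols was taken, which gave 22 of 41097 single-symbol probe sets, 12 for the 5 subunits and 10 for the 5 inhibitors. The arrays carried RNA from HEK293 cells, an established human embryonic kidney line transformed with adenoviral DNA. All cells had been kept overnight without serum. The LPA group then received 1 µM lysophosphatidic acid, a serum phospholipid that signals through G protein-coupled receptors, for 2 h, and the untreated group, titled Vc, is labelled as having no treatment. Each group had 2 arrays, with replicate numbers 1 and 2. No vehicle is named for the untreated cells, and no label says that the replicates were separate cultures, so each p-value reflects the scatter of these 4 arrays alone and that scatter may be technical.

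As background, stimulation of the pathway leads the IkB kinase complex to phosphorylate NFKBIA and its relatives, which are then ubiquitinated and degraded. The freed dimers enter the nucleus, and among the genes they switch on are NFKBIA and TNFAIP3 themselves, which end the response. G protein-coupled receptors, those for LPA among them, can reach the kinase complex through the scaffold CARD10 (CARMA3) with BCL10 and MALT1.

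The promoters of the members were searched for the letters that NF-kappaB dimers are known to recognise. Promoter windows of 300 bases, from 250 before to 50 after an annotated transcription start (RefSeq, GRCh38.p14), were at hand for 8 of the 10 genes, 14 windows in all. NFKBIE and RELB had no entry. Both strands were searched for the kB consensus, which reads G, G, G, a purine, any base, A or T, a pyrimidine, a pyrimidine, C, C. It was found in 9 of the 14 windows and for 7 of the 8 genes, all but RELA, while 5.91% of 35116 windows of the same length held it. Such a match is a description of the letters and does not show that a factor binds there. The 250 bases before the start of NFKBIA (chr14:35404750-35404999, minus strand, 5′ to 3′), the member of smallest p in the comparison below, are shown with the kB match in capitals.

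NFKBIA: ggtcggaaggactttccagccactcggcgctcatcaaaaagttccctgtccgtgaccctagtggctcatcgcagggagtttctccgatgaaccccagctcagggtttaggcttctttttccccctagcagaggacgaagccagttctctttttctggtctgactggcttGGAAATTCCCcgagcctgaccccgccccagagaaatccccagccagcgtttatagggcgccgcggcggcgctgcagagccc

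For the other 6 genes the match nearest to an annotated start is given as a stretch of 30 bases, again with the kB letters in capitals, so that the letters can be compared between genes. All 6 stretches are printed as the plus strand reads, and matches that overlapped or lay a few bases apart were merged. For NFKBIA and TNFAIP3 the capitals fit the consensus when read on the strand opposite to the printed one.
TNFAIP3, chr6:137867188-137867217: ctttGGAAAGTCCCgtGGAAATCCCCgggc
NFKBIB, chr19:38899932-38899961: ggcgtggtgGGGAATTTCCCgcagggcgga
NFKBIZ, chr3:101827757-101827786: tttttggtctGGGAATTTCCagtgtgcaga
REL, chr2:60881518-60881547: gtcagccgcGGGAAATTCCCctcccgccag
NFKB1, chr4:102501300-102501329: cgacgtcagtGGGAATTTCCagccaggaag
NFKB2, chr10:102395674-102395703: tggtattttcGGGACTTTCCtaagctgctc
The matched letters begin 81 bases before the start for NFKBIA, 67 for TNFAIP3, 28 for NFKBIB, 223 for NFKBIZ, 47 for REL, 49 for NFKB1 and 21 for NFKB2. For TNFAIP3 this is the farther of its 2 merged matches. NFKB2 held 4 separate matched stretches, the highest number among the members, but it also had the most windows, 3. Merged matches count as 1 stretch.

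The values are MAS5 signal intensities on a linear scale, in arbitrary units, scaled by the authors to a common trimmed mean (500.1 on each array). LPA replicate 2 stood apart from the other arrays in its maximum intensity, 62508 against 93776 to 104012, and in the 3′-to-5′ intensity ratio of its ACTB control probe sets, 18.8 against 12.6 to 13.6. For GAPDH that ratio was 1.38 on this array and 1.35 on LPA replicate 1, both above the 1.25 and 1.22 of untreated replicates 1 and 2, so this measure, which depends on RNA integrity and labelling, moved with the treatment. Its part in the results was not tested. Values without LPA replicate 2, or the range over leaving out each array in turn, stand beside the members tested and many of the named genes. For some other named genes they are in the closing section. The 7 genes taken as markers of the HEK293 background (neurofilament and keratin genes, INA, VIM and PAX2) were all above the filter on dim genes, a signal of 70.5, with summed signals of 34431 and 39341 untreated and 32884 and 29198 after LPA. Of 5 leukocyte markers 3 were measured (PTPRC, CD3E and CD14) and these were all below that filter, with summed signals of 32.9 and 144 untreated and 33.0 and 23.5 after LPA. Of the 3 endothelial markers only PECAM1 lay above it (69.0 and 130 untreated, 111 and 48.3 after LPA), and ALB, the hepatocyte marker, did not.

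LPA and untreated cells were compared to ask whether the transcripts of these genes differ 2 h after stimulation. No member passed the test. Each gene was taken by its brightest probe set, as log2(intensity + 1), in limma over 11865 genes with Benjamini-Hochberg adjustment, and 0 of the 9 members above the filter had an adjusted p under 0.05, where 0% of all genes did. At an unadjusted limma p under 0.05 there were also 0 members, against 1.74% of all genes. The median log2 difference of the 9 was 0.012, against 0.0092 over all genes, with 5 members above 0 and 4 below. In such bulk RNA, a change in the number of cells with a transcript and a change in RNA per cell cannot be told apart. With 2 arrays against 2, an exact two-sided permutation test on 1 gene cannot go below p = 0.333.

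**Figure D1:**
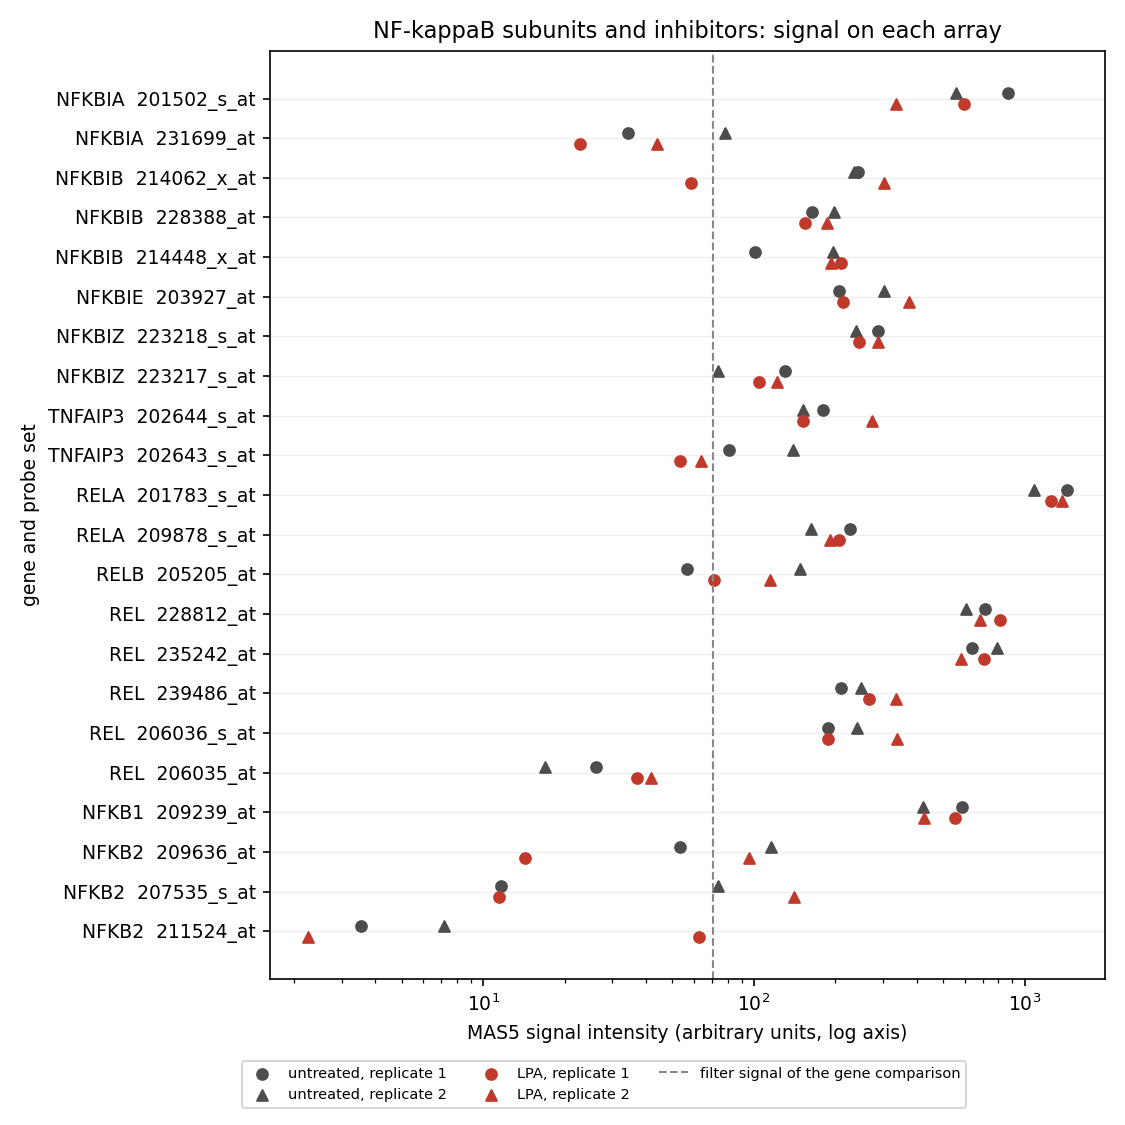
MAS5 signal intensity (log axis, arbitrary units) of all 22 member probe sets, 1 row each, on the 2 untreated arrays (grey) and 2 LPA arrays (red), with circles for replicate number 1 and triangles for number 2; the dashed line is the filter signal of 70.5. Grey and red points interleave in 19 of the 22 rows, and 14 rows have all 4 points at or above the line. Both red points lie above both grey ones in 2 rows and below them in 1. Of all 41097 single-symbol probe sets 15% and 15.8% did so.

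NFKBIA encodes IkB-alpha, the inhibitor that is degraded first and made anew by NF-kappaB itself. Its brightest probe set (201502_s_at) read 867 and 556 on untreated replicates 1 and 2 and 599 and 335 on LPA replicates 1 and 2. Each LPA array was lower than the untreated array of the same number, yet the groups overlapped, because untreated replicate 2 lay below LPA replicate 1. The log2 difference was -0.63 ± 0.34 (limma SE, 2 arrays per group), a ratio of 0.646 with a 95% confidence interval of 0.377 to 1.10, and the limma adjusted p was 0.9999 (unadjusted 0.0976). It was -0.53 within replicate number 1 and -0.73 within number 2. The spread between arrays of 1 group was as large: replicate 2 was lower than replicate 1 by -0.64 untreated and by -0.84 after LPA on the log2 scale. A limma fit that also allowed for the replicate number gave NFKBIA an adjusted p of 0.239 (unadjusted 0.0030). In that fit 1014 of 11865 genes had an unadjusted p under 0.05, and the labels do not say what the number marks.

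The second NFKBIA probe set (231699_at) was dim, at 34.4 and 78.3 untreated and 22.7 and 43.7 after LPA. It too was lower after LPA in both numbers, by -0.58 and -0.83, but 3 of its 4 values lay under the filter signal, and here replicate 2 was the higher array in each group. Leaving out LPA replicate 2 brought the difference of the brightest probe set to -0.21, and leaving out untreated replicate 1 to -0.31. It was -0.95 without untreated replicate 2 and -1.05 without LPA replicate 1, so the size of the difference depended on single arrays while its sign did not.

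TNFAIP3 encodes A20, an enzyme that edits ubiquitin chains and shuts the pathway down after stimulation. Its 2 probe sets went apart. The brighter (202644_s_at) read 180 and 152 untreated and 152 and 273 after LPA. Its log2 difference of 0.30 ± 0.39 was made of -0.24 in number 1 and 0.84 in number 2. Only the value of LPA replicate 2 lay above the others, and without that array the difference was -0.12. The SE of a probe set that is not the brightest of its gene comes from the same model run over 24658 probe sets. The dimmer (202643_s_at) read 80.8 and 140 untreated and 53.3 and 63.5 after LPA, the only member probe set with both LPA values below both untreated ones. Its log2 difference was -0.86 ± 0.51, with -0.59 in number 1 and -1.12 in number 2, and limma gave an adjusted p of 0.99999 (unadjusted 0.13). Both LPA values of this probe set were under the filter signal of the gene comparison, and the mean of the 2 probe sets gave -0.28.

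NFKBIB encodes IkB-beta, an inhibitor that is degraded more slowly than IkB-alpha. Its 3 probe sets gave 3 different pictures. The brightest (214062_x_at) read 243 and 234 untreated and 58.4 and 302 after LPA, so the LPA arrays lay on either side of the untreated ones. Its log2 difference of -0.84 ± 0.66 combined -2.04 in number 1 with 0.37 in number 2, and was 0.34 without LPA replicate 1 and -2.01 without LPA replicate 2. A second (214448_x_at) read 101 and 196 against 210 and 193, a difference of 0.52 ± 0.40 in which untreated replicate 1 alone was low. The third (228388_at) read 164 and 197 against 154 and 186, a difference of -0.085 ± 0.33, with -0.089 in number 1 and -0.080 in number 2. In Affymetrix names the ending x_at marks probe sets whose probes can match other sequences. The 2 of that kind were the less even ones of this gene, but whether the ending bears on the values was not tested. Member probe sets without it could be uneven too, such as 205205_at of RELB (56.7 and 148 untreated).

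**Figure D2:**
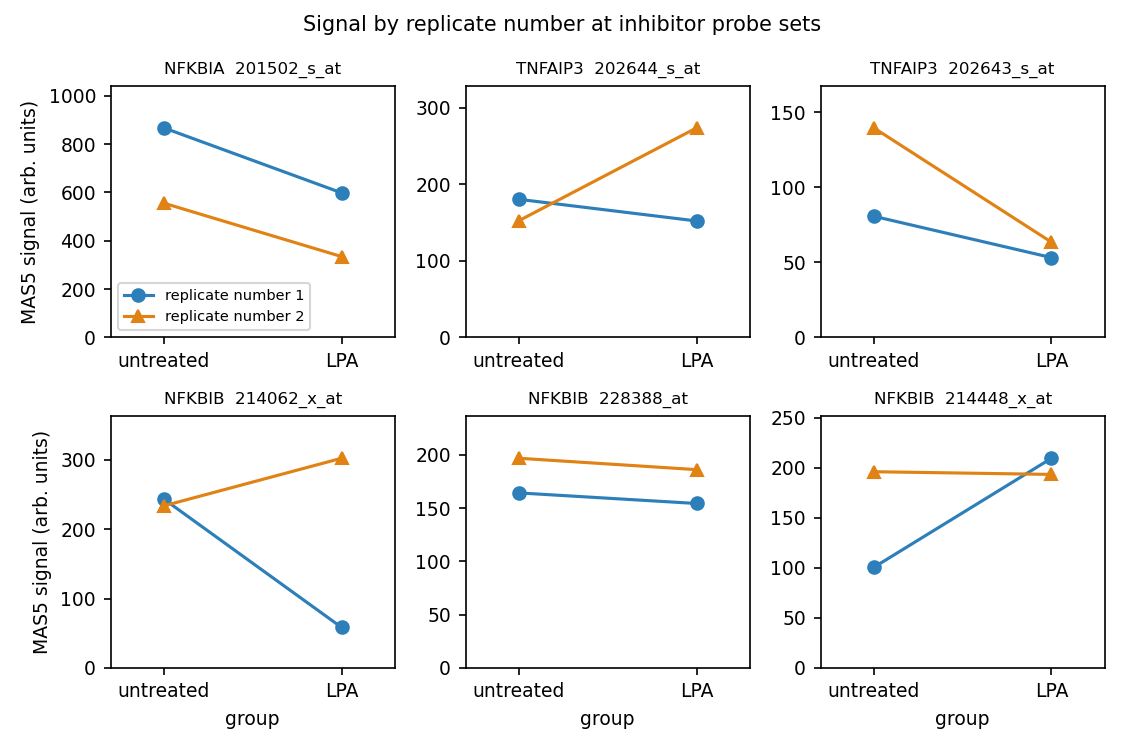
MAS5 signal (linear axis from 0, arbitrary units) of the NFKBIA probe set 201502_s_at and of the 2 TNFAIP3 and 3 NFKBIB probe sets, untreated and after LPA; each point is 1 array and each line joins the arrays of the same replicate number. Both lines go down for NFKBIA, TNFAIP3 202643_s_at and NFKBIB 228388_at, and they diverge or cross in the other panels.

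NFKBIE, which encodes IkB-epsilon, had 1 probe set and read 206 and 302 untreated and 214 and 373 after LPA. The LPA array was the higher one in both numbers, by 0.052 and 0.30, but replicate 2 exceeded replicate 1 by more than that in each group, by 0.55 untreated and 0.80 after LPA. The log2 difference was 0.18 ± 0.37, and it turned to -0.10 without untreated replicate 1 and to -0.22 without LPA replicate 2.

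NFKBIZ encodes IkB-zeta, a nuclear member that acts as a cofactor for some target genes. Its brighter probe set (223218_s_at) read 288 and 239 untreated and 244 and 286 after LPA. The log2 difference was 0.012 ± 0.30, with a 95% confidence interval for the ratio of 0.626 to 1.62. The sign turned to -0.047 under quantile normalization and to -0.10 without LPA replicate 2. The dimmer one (223217_s_at) read 130 and 73.6 against 104 and 122, a difference of 0.20 ± 0.46. Both probe sets were lower after LPA in number 1 (-0.24 and -0.31) and higher in number 2 (0.26 and 0.72).

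RELA encodes p65, the subunit with a transactivation domain in the most common dimer. It read 1431 and 1080.5 untreated and 1251 and 1377 after LPA at its brighter probe set (201783_s_at), so both LPA values lay between the untreated ones. The log2 difference was 0.078 ± 0.20, the smallest SE among the members, and the 95% confidence interval of the ratio was 0.765 to 1.46. Leaving out 1 array gave -0.12 (without untreated replicate 2) to 0.28 (without untreated replicate 1), and 0.0086 without LPA replicate 2. The other probe set (209878_s_at) read 226 and 162 against 206 and 191, with a difference of 0.050 ± 0.33. As for NFKBIZ, both RELA probe sets were lower in number 1 (-0.19 and -0.13) and higher in number 2 (0.35 and 0.23).

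NFKB1 encodes p105, the precursor of the DNA-binding subunit p50 and the usual partner of RELA. It read 587 and 421 untreated and 554 and 424 after LPA, close agreement within each number and a wide gap between numbers. The log2 difference was -0.037 ± 0.28 (-0.084 in number 1 and 0.010 in number 2), while replicate 2 differed from replicate 1 by -0.48 untreated and -0.38 after LPA. The difference turned to 0.15 without LPA replicate 2 and to 0.20 without untreated replicate 1. The 95% confidence interval of the ratio was 0.630 to 1.51.

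REL encodes c-Rel, a subunit best known from lymphocytes, and had 5 probe sets. The brightest (228812_at) read 715 and 605 untreated and 813 and 683 after LPA, higher in both numbers by 0.19 and 0.18, with overlap between the groups and a log2 difference of 0.18 ± 0.22. Without LPA replicate 2 it was 0.31. It was 0.055 when LPA replicate 1 was dropped and 0.060 when untreated replicate 2 was. The next (235242_at) read 639 and 790 against 706 and 580, a difference of -0.15 ± 0.23 with opposite signs in the numbers. The third (239486_at) read 210 and 249 against 266 and 335, with both LPA values above both untreated values and a difference of 0.39 ± 0.29 (limma adjusted p = 0.99999, unadjusted 0.22). The fourth (206036_s_at) read 188.3 and 241 against 188.2 and 337, a difference of 0.24 ± 0.36. The last (206035_at) also had no overlap, at 26.2 and 17.0 against 37.1 and 41.8, but all of its values lay under the filter signal and it was not tested. Of the 5, 4 had a positive mean difference, and they share 1 gene and the same RNA, so they are not separate replicates of the comparison.

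RELB and NFKB2, whose products RelB and p52 form the dimer of the alternative pathway, lay near the filter (RELB) or below it (NFKB2). RELB read 56.7 and 148 untreated and 71.0 and 115 after LPA. The log2 difference was -0.021 ± 0.56, with 0.32 in number 1 and -0.36 in number 2, and it ranged from -0.71 without untreated replicate 1 to 0.66 without untreated replicate 2. Median centring of the arrays gave 0.013. NFKB2 was below the gene filter, so it was not among the 9 members tested. Its probe set 209636_at, tested in the comparison of probe sets, read 53.1 and 116 untreated and 14.3 and 96.1 after LPA (-1.05 ± 0.90). The others read 11.7 and 73.5 against 11.4 and 140 (207535_s_at) and 3.53 and 7.20 against 62.7 and 2.26 (211524_at). On the first 2 of these probe sets replicate 2 was the higher array in both groups, and 211524_at was high on LPA replicate 1 alone.

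**Figure D3:**
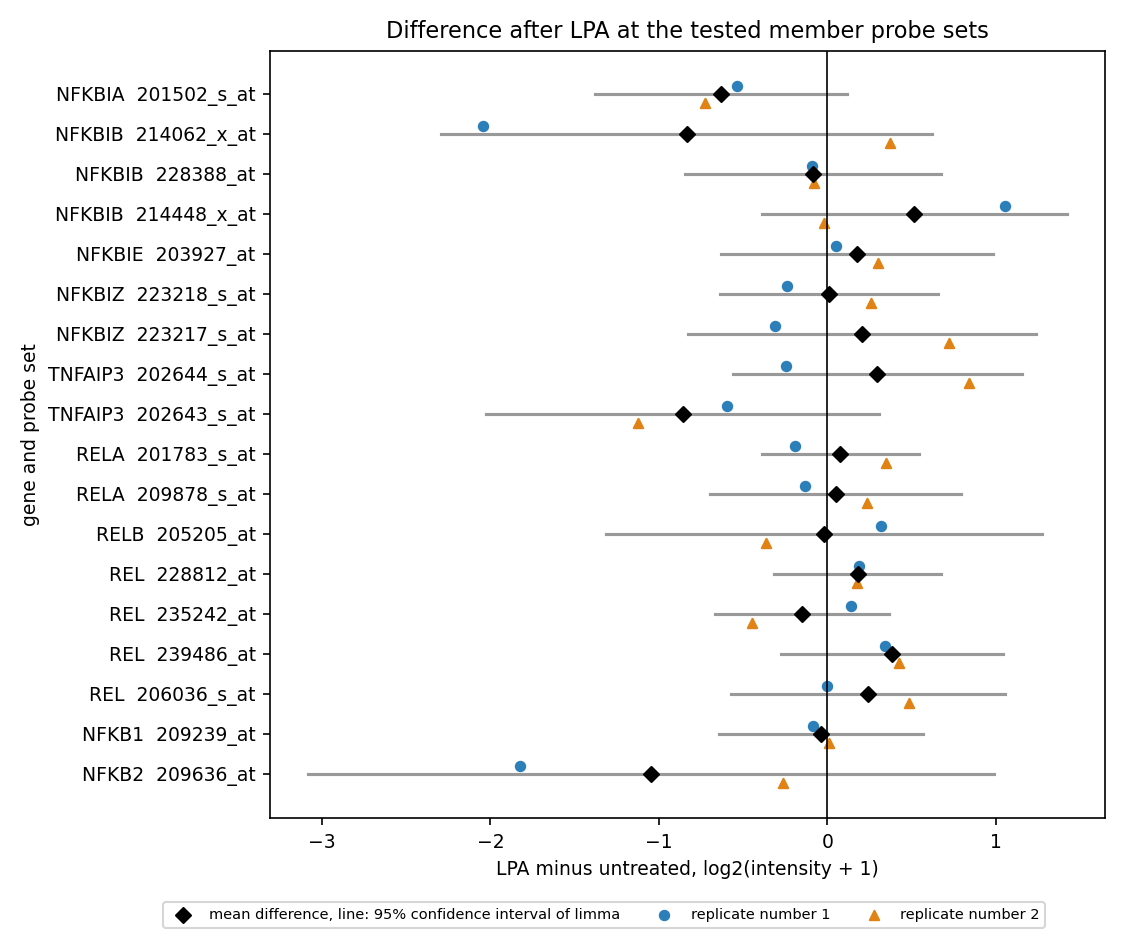
LPA minus untreated on the log2(intensity + 1) scale for the 18 member probe sets in the comparison of probe sets; black diamonds are mean differences with limma's 95% confidence interval, blue circles replicate number 1 and orange triangles number 2. Every interval includes 0, and circle and triangle lie on opposite sides of 0 for 11 of the 18.

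Over probe sets, 18 of the 22 passed the filter of that comparison, a signal of 47.1, and 0 of them had an adjusted p under 0.05, as for 0% of 24658 probe sets. None had an unadjusted limma p under 0.05 either, against 2.19% of all. For 1 of the 18 the LPA pair lay wholly above the untreated pair, where 15.4% of all probe sets did so, and for 1 it lay wholly below, where 13.5% did. Without LPA replicate 2 the remaining LPA value lay above both untreated values for 3 and below them for 6, where 29.3% and 29% of all probe sets did so. The replicate numbers gave opposite signs for 11 of the 18, against 47.2% of all probe sets. The 2 untreated arrays differed from each other by more than the group means did for 14 of the 18, against 66.1% of all.

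The genes around the members were taken from lists by role, and in each list 0 genes passed the threshold in either direction. The 2 genes of smallest p per list are named, a choice that favours groups without overlap, and some others whatever their test. Of all 11865 genes tested, 1712 had both LPA values above both untreated ones and 1488 had both below. Of the kinases that phosphorylate IkB proteins or act above them, 10 of 11 were tested, with 6 differences above 0 and 4 below (median 0.088). CHUK, the catalytic subunit IKK-alpha, read 2064 and 2361 untreated and 2619 and 3038 after LPA, with no overlap and a log2 difference of 0.35 ± 0.17 (limma adjusted p = 0.9999, unadjusted 0.0674). It was 0.34 in number 1 and 0.36 in number 2. The other catalytic subunit IKBKB, at 1022.5 and 726 against 899.5 and 762, differed by -0.057 ± 0.24 (its other probe set above the filter by 1.05), and the scaffold subunit IKBKG by 0.049 ± 0.27, which quantile normalization turned to -0.014. TBK1, a related kinase, differed by 0.31 ± 0.18, also with no overlap. Leaving out 1 array gave 0.25 to 0.46 for CHUK and 0.17 to 0.44 for TBK1.

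In the list of the CARMA-BCL10-MALT1 complex and protein kinase C, 7 of 8 genes were tested, 5 of them above 0 and 2 below (median 0.15). CARD10 read 766 and 658 untreated and 877 and 1047 after LPA, a difference of 0.43 ± 0.21 with no overlap between groups (limma adjusted p = 0.9999, unadjusted 0.0754). BCL10, its partner, read 1931 and 2139 against 2262 and 2377 (0.19 ± 0.16), again with no overlap. MALT1, the protease of the complex, differed by 0.12 ± 0.26 with overlap. The next probe set of BCL10 above the filter was lower after LPA (203 and 168 against 122 and 138), and the other 2 CARD10 probe sets lay below the filter at 0.56 and -1.12, so the mean over probe sets turned both genes to -0.10 and -0.040. PRKCE, a protein kinase C isoform, read 732 and 452 untreated and 434 and 256 after LPA, with no overlap (-0.79 ± 0.35, limma adjusted p = 0.9999, unadjusted 0.0519). Its other 3 probe sets lay below the filter and differed the other way, by 1.21 to 1.28. Dropping 1 array moved PRKCE between -0.41 (LPA replicate 2 dropped) and -1.17 (LPA replicate 1 dropped), CARD10 between 0.30 and 0.56 and BCL10 between 0.12 and 0.26.

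Of 12 receptors 6 were tested, 3 with differences above 0 and 3 below. TNFRSF1A, a receptor for tumour necrosis factor, differed by 0.32 ± 0.27, and the LPA receptor LPAR3, at 1195 and 1622 against 1244.2 and 1243.9, by -0.16 ± 0.20. Of 13 adaptors 8 were tested, 6 above 0 and 2 below: the death-domain adaptor TRADD read 265 and 362 against 162 and 246 with no overlap (-0.63 ± 0.35), though its other probe set above the filter gave 0.27, and FADD differed by 0.23 ± 0.22. The range over dropping each array was -0.93 to -0.33 for TRADD, 0.13 to 0.52 for TNFRSF1A and 0.13 to 0.34 for FADD. Ubiquitin enzymes had 8 of 10 tested, 2 above 0 and 6 below, with CUL1 at -0.29 ± 0.34 and RNF31 at -0.56 ± 0.73. Dropping 1 array moved CUL1 between -0.73 and 0.15 and RNF31 between -1.72 and 0.60. Both were highest, and above 0, without LPA replicate 2. The other inhibitors of the pathway split into 5 above and 5 below among 10 tested of 13. TNIP1, a partner of A20, read 952 and 967 against 1035 and 1432 (0.34 ± 0.22, no overlap), but its other probe set above the filter gave -0.45. The ubiquitin ligase ITCH differed by 0.32 ± 0.21, and its other probe sets above the filter by -0.40 to 0.30. Nuclear cofactors had 8 of 10 tested, 2 above 0 and 6 below, with RPS3 at -0.31 ± 0.19 and the deacetylase SIRT1 at -0.27 ± 0.20. For RPS3 the value on LPA replicate 2, 40830, stood below the other 3 arrays (54549 to 62083), and without it the difference was -0.10. Leaving out 1 array gave -0.46 to -0.088 for SIRT1, 0.11 to 0.58 for TNIP1 (lowest without LPA replicate 2) and 0.19 to 0.45 for ITCH.

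Target genes of NF-kappaB were mostly dim in these cells: 11 of 30 were above the filter, 6 with differences above 0 and 5 below (median 0.026). The chemokine gene CXCL8, a widely used readout of the pathway, read 37.5 and 57.8 untreated and 14.9 and 23.0 after LPA, all under the filter signal. ICAM1, an adhesion molecule, read 13.8 and 24.4 against 37.0 and 40.6, under it as well. Its other probe sets, also under it, read 10.3 and 13.0 against 48.1 and 42.5, and 27.2 and 6.15 against 47.3 and 8.61. BIRC3, counted among the 30, had no probe set with exactly 1 symbol, so its level is not known here. GADD45B, a stress-induced gene, read 1349 and 1139 untreated and 834 and 941 after LPA, which is -0.48 ± 0.20 on the log2 scale, with no overlap. It had the only unadjusted limma p under 0.05 among the listed pathway genes, 0.0387 (adjusted p = 0.9999). Over all genes 1.74% had such a p, and GADD45B is named because its p was the smallest among the targets. Its other 2 probe sets above the filter were also lower after LPA with no overlap (708 and 590 against 516 and 493, and 420 and 323 against 263 and 229). Dropping 1 array gave -0.61 to -0.36 for its brightest probe set.

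**Figure D4:**
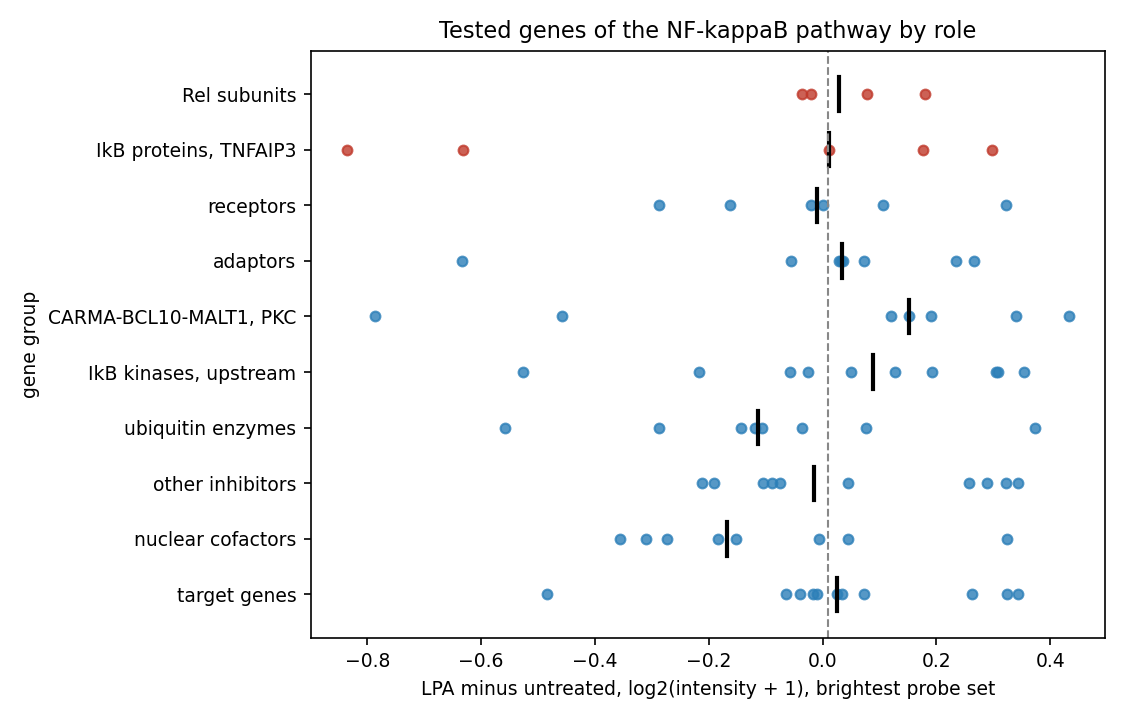
LPA minus untreated on the log2(intensity + 1) scale for each tested gene of the pathway by role, at its brightest probe set (members red, other genes blue); black bars are group medians and the dashed line is the median of all 11865 genes tested, 0.0092. The medians of the groups lie between -0.17 (nuclear cofactors) and 0.15 (CARMA-BCL10-MALT1 and protein kinase C).

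NFKBIA was the member of smallest p, and 3 genes had the pattern over the 4 arrays most like its own, by root mean square distance of centred log2 values. They were KLHL21 (distance 0.054), PRKCE (0.084) and RIMS4 (0.085), and 7 of 11856 genes lay within 0.1. KLHL21 read 1086 and 656.5 untreated and 712 and 434 after LPA, and leaving out 1 array gave log2 differences of -0.97 to -0.24 for it. With only 4 arrays this is a description of these values.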

How the data were processed

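Each sample is 1 array of total RNA. The deposited intensity values were made by the authors with MAS5, per the submitters' processing notes, and had been scaled array by array. The MAS5 version and settings are not given in the labels, and detection calls were not at hand. Symbols came from the platform annotation: of 54675 probe sets, 41097 had 1 symbol, 1801 several and 11777 none. All 22 member probe sets were kept.

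Values were taken as log2(intensity + 1), which understates differences of dim genes. Each gene was represented by its brightest probe set, genes under the 40th percentile (a signal of 70.5) were left out, and untreated and LPA arrays were compared with limma 3.58.1 in R 4.3.3 (intensity trend, two-sided, Benjamini-Hochberg, threshold 0.05). The same model was run over probe sets (40th percentile, a signal of 47.1). It was tested on simulated data. Members, lists and tests were chosen with earlier results of these data known. The text names all members, the 2 listed genes of smallest p per role, and CHUK, IKBKB, IKBKG, CARD10, BCL10, MALT1, CXCL8, BIRC3 and ICAM1 whatever their test. The alternatives were other scalings, pseudocounts, filters, summaries and variance models, the replicate number as a block, and each array left out.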

Additional observations from a re-analysis of the deposited data

How the results depend on the processing

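In every alternative run 0 member genes and 0 member probe sets passed the threshold. Over all genes the count of 0 became 32 with the replicate number as a block, 4 with the block and quantile normalization, and 0 to 3 when 1 array was left out. The labels do not say what a number marks. Deviations of same-numbered arrays correlated at r = 0.33 across genes, but whether these arrays were paired in the experiment is not known. With the block, NFKBIA kept its difference of -0.63 with an adjusted limma p of 0.239 (0.261 with quantile normalization). Its unadjusted limma p was 0.0030 (0.0021 with quantile normalization), the only one under 0.05 among the members tested. In these runs 1014 and 1046 of 11865 genes had an unadjusted limma p under 0.05.

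Chosen after seeing the data, recounts of member probe sets gave 2 of 18 with both LPA values above both untreated ones under median centring (18.3% of all probe sets) and 2 of 22 with no filter (15% of all). Without LPA replicate 2 they gave 3 above (29.3% of all) and 6 below (29% of all). Leaving aside filters, variance models and the block, which cannot move a difference, 58 of 72 values for the 9 members tested kept their sign. So did 153 of 167 for 21 other named genes. Both counts still hold the mean of all probe sets for genes with only 1 probe set, where it cannot differ (NFKBIE, RELB and NFKB1 among the members). NFKBIZ turned to -0.047 under quantile normalization, with or without the block, RELB to 0.013 under median centring and TNFAIP3 to -0.28 with the mean of all probe sets. IKBKG turned to -0.014 under quantile normalization, with or without the block, and to -0.062 with the mean of all probe sets. That mean also turned CARD10 (-0.040), BCL10 (-0.10), PRKCE (0.73), TNIP1 (-0.052) and RIMS4 (0.41). Leaving out 1 array at a time gave ranges that crossed 0 for 7 members: NFKBIB (-2.01 to 0.34), NFKBIE (-0.22 to 0.58), NFKBIZ (-0.12 to 0.15), TNFAIP3 (-0.12 to 0.72), RELA (-0.12 to 0.28), RELB (-0.71 to 0.66) and NFKB1 (-0.28 to 0.20). It did so too for LPAR3 (-0.38 to 0.058), IKBKB (-0.30 to 0.19), IKBKG (-0.080 to 0.18), CUL1 (-0.73 to 0.15) and RNF31 (-1.72 to 0.60). With 2 arrays per group log2 differences had a median SE of 0.34 over the members tested and 0.24 over all genes.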
